A study of Homo sapiens with 28 samples.

Results

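In Kuramochi ovarian cancer cells, 113 of 105048 consensus peaks of open chromatin (0.108%) were high in all 7 populations adapted to the PARP inhibitor olaparib and low both in untreated cells and in cells exposed to the drug for 9 days. They were selected on measured values, in CPM, the count of a peak per 1e6 counts of its library, averaged over the 2 libraries of a group. The lowest of the 7 adapted populations had to reach 2 CPM and 3 times the level of the untreated population plus 0.2 CPM. Both exposed populations had to stay under 1.5 times that level. Differences of adapted from untreated, exposed from untreated and adapted from exposed cells were therefore part of the choice and are given as description, without a test. What the choice did not use directly was the order of the doses among adapted populations, the difference between the exposed populations, and where the peaks lie. The caps on both exposed populations still limit the difference between them. The peaks also had to be low in untreated relative to adapted cells, and whether that level bears on where they lie was not tested.

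Kuramochi is an established line of high-grade serous ovarian carcinoma, labelled epithelial and BRCA2-mutant, and every group shares this 1 line and genotype. Untreated cells form group C. The adapted populations, which run from T5, T10 and T20 through T40 and T80 to T160 and T320, carry in their names the olaparib dose they had adapted to, 5, 10, 20, 40, 80, 160 or 320 uM. P10 and P320, called persister cells in the labels, were drug-naive cells given 10 or 320 uM for 9 days. Cells of C and of all adapted populations went through a sort by the surface proteins CD24 and CD44, which kept adapted cells with low CD24 and high CD44. The labels mention no such sort of the exposed cells. The sort, the adaptation and the length of exposure can therefore not be told apart in any comparison of T with C or P. Each population is a bulk sample, in which fewer cells with an open site and less access per cell cannot be told apart, and each had 2 libraries that the labels do not describe as separate cultures. P-values then measure only the spread between these libraries, which may be technical.

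ATAC-seq marks DNA that the Tn5 transposase can reach, mainly promoters, enhancers and other regulatory elements free of nucleosomes. Olaparib blocks the catalytic activity of PARP enzymes and holds them on damaged DNA, and cells without functional BRCA2, which cannot repair the resulting breaks by homologous recombination, are sensitive to it. Most regulatory elements that differ between cell states lie away from promoters, and the nearest gene is only one candidate for the gene such an element acts on. A peak is named here after its nearest protein-coding gene, which says where it lies and nothing about that gene's expression.

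The promoter sequences that the peaks cover are shown first, because only 4 of the 113 peaks reached any annotated promoter window. The windows are RefSeq's, on GRCh38.p14, from 250 bases before to 50 bases after a start of transcription, and 5 of them lay whole within these 4 peaks. The first 2 are alternative starts of INPP4B, a phosphatase that removes a phosphate from phosphoinositides of the PI3K pathway, both inside the annotated gene and on the minus strand, at chr4:142405810-142406109 and chr4:142405397-142405696. The next is an internal start of SERTAD4 on the plus strand at chr1:210237036-210237335. The last is the start of the long noncoding RNA LINC01152 on the plus strand at chr17:72030404-72030703, in a peak whose nearest coding gene, SOX9, lies 89997 bp away. Capitals mark matches to the searched motifs.
INPP4B upstream start: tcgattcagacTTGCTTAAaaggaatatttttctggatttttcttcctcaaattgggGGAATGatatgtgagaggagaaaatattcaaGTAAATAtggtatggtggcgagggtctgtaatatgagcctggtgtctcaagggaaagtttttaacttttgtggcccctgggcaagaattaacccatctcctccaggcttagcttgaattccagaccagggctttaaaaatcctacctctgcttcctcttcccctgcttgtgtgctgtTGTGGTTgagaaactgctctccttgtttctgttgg
INPP4B downstream start: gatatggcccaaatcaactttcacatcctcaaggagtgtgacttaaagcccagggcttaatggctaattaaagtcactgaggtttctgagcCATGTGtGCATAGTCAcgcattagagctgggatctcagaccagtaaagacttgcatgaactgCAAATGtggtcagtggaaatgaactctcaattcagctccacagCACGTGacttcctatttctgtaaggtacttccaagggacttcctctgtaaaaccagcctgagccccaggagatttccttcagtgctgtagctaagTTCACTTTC
SERTAD4: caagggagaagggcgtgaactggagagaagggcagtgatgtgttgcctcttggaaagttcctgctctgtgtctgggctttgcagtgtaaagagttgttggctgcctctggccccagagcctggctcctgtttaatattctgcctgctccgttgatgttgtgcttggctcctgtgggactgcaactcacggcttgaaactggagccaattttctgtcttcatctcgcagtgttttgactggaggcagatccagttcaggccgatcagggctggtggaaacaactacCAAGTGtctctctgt
LINC01152: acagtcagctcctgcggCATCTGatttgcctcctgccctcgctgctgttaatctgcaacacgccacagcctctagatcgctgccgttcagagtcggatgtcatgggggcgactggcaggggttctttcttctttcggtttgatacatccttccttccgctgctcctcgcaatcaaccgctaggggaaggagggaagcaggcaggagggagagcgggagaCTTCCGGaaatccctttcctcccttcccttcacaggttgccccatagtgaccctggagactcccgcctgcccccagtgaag
In the upstream INPP4B window the matches, read on either strand, were GGAATG of TEAD factors, which 14% of the 35116 RefSeq promoter windows hold, TGTGGTT of RUNX (4.27%), TATTTAC of forkhead factors (5.97%, counting also the spelling TGTTTAC) and TTGCNNAA of CEBP (10.5%). The downstream INPP4B window held the antioxidant response element TGACNNNGC (13.3%), an interferon response element GAAANNGAA (8.11%) and 3 E-boxes CANNTG (68.7%). SERTAD4 held 1 E-box only, and LINC01152 held 1 E-box and the ETS motif CCGGAAG (10.3%). The matches shown do not overlap one another, and none of the E-box matches is of the SNAI and ZEB type. AP-1 sites, TGANTCA, were in 7.71% of all windows and in none of the 4 shown. Also absent were the CTCF core spelled AGGGGGC, with the variant spellings AGGTGGC, then AGAGGGC, and last AGATGGC (30.5% of all windows hold one), AGATAA of GATA factors (10.3%), GGGCGGG of KLF and SP (33.1%), ACAATG of SOX (10.8%), the E-box CAGGTG of SNAI and ZEB (20.6%), TGATGNAA of ATF4 (3.62%), ATGCAAA of POU (4.46%), TGATTNAT of HOX and TALE (2.82%) and the nuclear receptor half-site AGGTCA (13.8%), which says only that these letters are not in these windows. Both INPP4B windows had 2 CpG dinucleotides, with 43.0% and 45.7% G and C, while LINC01152 had 14 CpG and 58.7%, equal to the medians over all windows. A match is a run of letters and not a measured binding site. The fifth window was that of the long noncoding RNA LOC107987110, at chr9:107221987-107222286. Sequences of the other 109 peaks were not analysed here.

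Total counts in peaks lay between 9627970 and 29699950 per library, and replicate 2 was deeper than replicate 1 in C and in every adapted population. Summed over the 7 of 25 epithelial marker genes with a peak at a promoter window, CPM were 230 in C, 219 in T5, 156 in T320, 300 in P10 and 315 in P320. The 13 of 20 Mullerian and serous lineage genes with such a peak summed to 399 in C and 254 in T320. The 15 of 32 mesenchymal genes with one summed to 274 in C, 308 in T5, 362 in T320, 384 in P10 and 405 in P320. Of markers of other cell types, the 4 of 12 blood genes summed to 60.3 in C and 145 in T320, the 5 of 10 neural genes to 50.4 and 106, and the 3 of 9 endothelial genes to 21.0 and 19. No peak lay at a promoter window of PTPRC, which marks leukocytes, or of any of the 6 hepatocyte genes. Most of the blood sum was CD68, a gene of lysosomes and macrophages, at 33.5 CPM in C and 116 in T320. Where these sums differed between C and T320, their part in what follows was not tested.

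Across the 113 peaks, the median of the mean CPM was 1.65 for C, 7.52 for T5, 9.28 for T10, 11.8 for T20, 9.98 for T40, 10.4 for T80, 8.98 for T160 and 9.98 for T320. It was 1.41 for P10 and 1.07 for P320. Over all peaks the same median stayed between 4.76 in P320 and 5.84 in T5. The 113 peaks were thus less accessible than the typical peak in untreated cells, and more accessible than it in adapted cells.

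**Figure D1:**
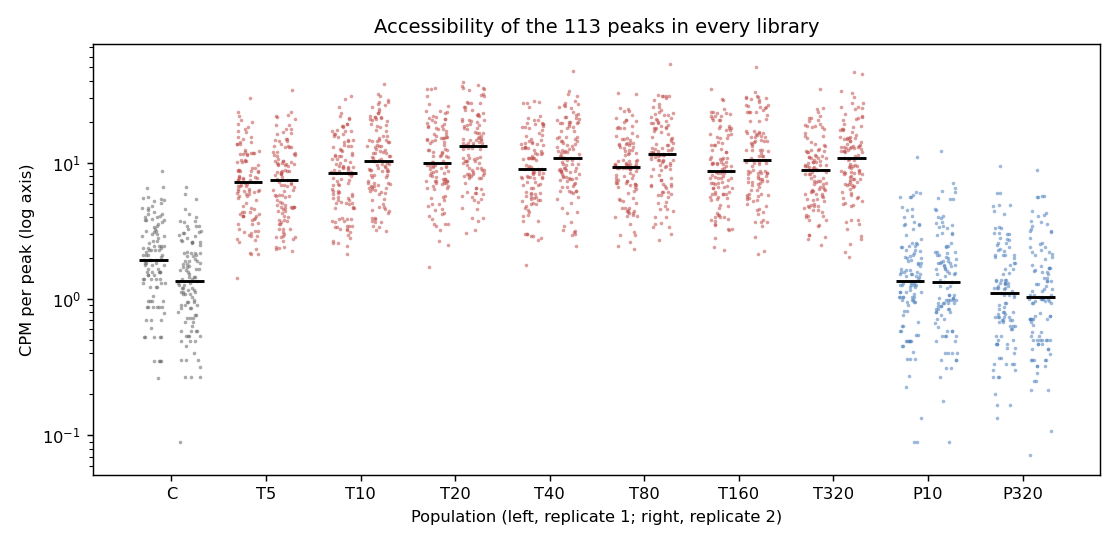
CPM of each of the 113 peaks (points, log axis) in each of the 20 libraries, with replicate 1 left and replicate 2 right for each population and the median as a black bar. The 14 adapted libraries have medians from 7.21 to 13.3 CPM, and the 6 libraries of C, P10 and P320 from 1.04 to 1.94 CPM.

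In every one of the 113 peaks the lowest of the 14 adapted libraries lay above the highest of the 6 libraries of C, P10 and P320, which the choice on group means favours but does not require. The median ratio to C was 4.22 for T5, 5.53 for T10, 7.0 for T20, 5.73 for T40, 6.03 for T80, 5.91 for T160 and 5.61 for T320. The exposed cells mostly lay under C: the median ratio was 0.861 in P10 and 0.729 in P320, with 68 and 90 of the 113 peaks below C and 59 below it in both. Over all peaks, 54.3% were below C in P10 and 62.0% in P320, and since the choice capped P10 and P320 from above, these counts cannot be read as an effect of exposure. At equal dose, the median ratio of T10 to P10 was 6.75, and that of T320 to P320 was 9.11.

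**Figure D2:**
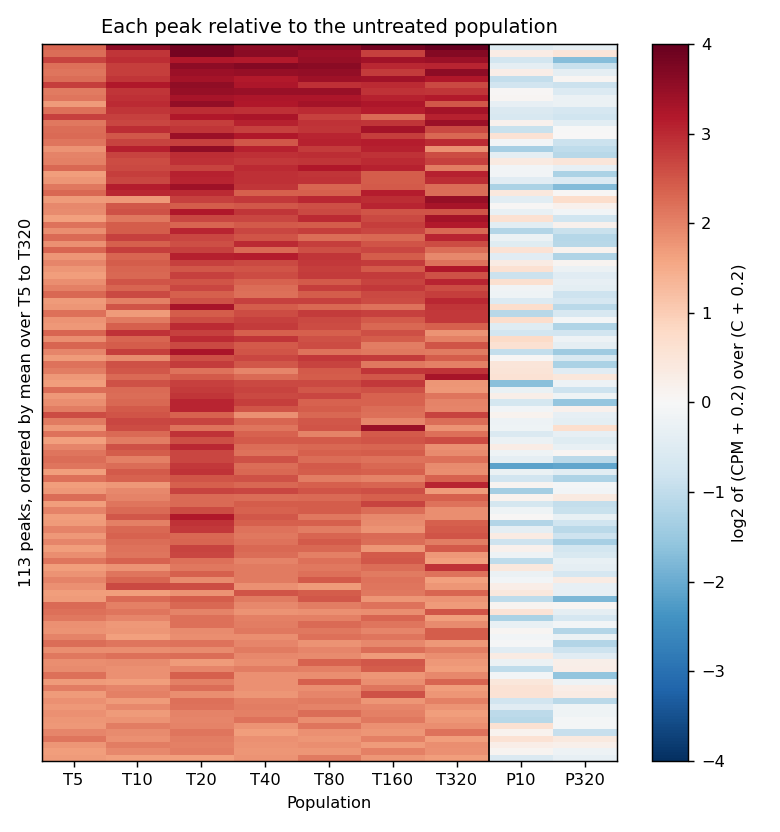
Each row is 1 of the 113 peaks and each column a population, coloured by log2 of (mean CPM + 0.2) over (C + 0.2), with rows ordered by the mean over T5 to T320. The 7 adapted columns are red throughout because of how the peaks were chosen, T5 is the palest of them in most rows, and P10 and P320 are pale or blue.

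The summed CPM of the 113 peaks was 268 and 192 for the 2 C libraries, 942 and 991 for T5, 1087 and 1405 for T10, 1367 and 1686 for T20, 1204 and 1471 for T40, 1205 and 1538 for T80, 1233 and 1495 for T160, and 1121 and 1423 for T320. It was 210 and 214 in P10, and 174 and 174 in P320. Replicate 2, the deeper library, was the higher one in all 7 adapted populations and the lower one in C, so the gap between adapted and untreated cells was wider in replicate 2. The part of depth in this was not tested. Chosen on replicate 1 alone the same rule kept 66 peaks, and on replicate 2 alone it kept 296. Of the 66, 64 had every adapted population above C plus 0.2 CPM in replicate 2, 35 of them at least 3-fold, against 22.5% and 0.755% of all peaks. Of the 296, 271 had every adapted population above that level in replicate 1, but only 31 were at least 3-fold, against 19.5% and 0.134% of all peaks. The direction was thus repeated in the library not used far more often than the size, and 27 peaks met the whole rule in both replicates. As the labels do not describe the libraries of a group as separate cultures, this repeat may be a technical one. Without C replicate 1 alone, the library with the higher C levels, the rule kept 308 peaks, 76 of them among the 113.

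Of 172 peaks that met the limits in the adapted populations, 59 were left out for their level in exposed cells: 39 for P10 alone, 5 for P320 alone and 15 for both. The limits cut through a continuum. Just inside the fold limit were peaks near LRRD1 (3.004), SEMA3D (3.005) and RTKN2 (3.007), and just outside it peaks near APCDD1L (2.9998), CDH6 (2.996) and BOD1 (2.994). The lowest adapted mean was 2.10 CPM near CFAP20DC, 2.21 near CBLN2 and 2.29 near CDH20 just inside the CPM limit, and 1.90 near ZNF330 and 1.82 near EYS just outside it. The higher exposed population stood at 1.48 times C plus 0.2 CPM in FNIP2, 1.46 in SEMA3A and 1.46 near NCOA3, and was over the limit at 1.53 near FRMD6, 1.56 near SLX4IP and 1.56 near a second P3H2 peak.

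The peak that stood highest over untreated cells lay inside RBMS3, which encodes an RNA-binding protein, at chr3:29384278-29385712. Its level was 3.35 and 1.13 CPM for the C libraries, 15 and 16.5 for T5, 16.4 and 21 for T10, 21.8 and 22.4 for T20, 18.2 and 25 for T40, 23.8 and 30.6 for T80, 24.6 and 25.1 for T160, 18.6 and 33.7 for T320, 1.13 and 1.38 for P10 and 0.741 and 0.358 for P320. Its lowest adapted mean was 6.46 times C plus 0.2 CPM, the largest such ratio of the 113, and both P320 libraries lay below both C libraries. GIMD1, named after a GTPase domain, is the nearest gene of the peak at chr4:106614049-106615356, 245271 bp away, which followed with a ratio of 6.02. It measured 6.19 to 15.6 CPM in the 14 adapted libraries, 0.793 and 0.990 in C, 0.361 and 0.535 in P10 and 0.303 and 0.501 in P320, so that no adapted library came near the other 6.

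VEGFC, SEMA3A and CCN2, which encode secreted proteins, were also nearest to peaks among the 12 with the largest ratio. VEGFC is a growth factor for lymphatic and blood vessels that acts through VEGF receptors. The peak at chr4:176882904-176884607, 89982 bp from it, had 1.76 and 1.13 CPM for the C libraries, 7.47 and 8.72 for T5, 15.4 and 23.8 for T10, 21 and 25.8 for T20, 19.2 and 19.9 for T40, 14 and 25.7 for T80, 20.6 and 25.6 for T160, 25.2 and 46.6 for T320, 1.04 and 0.847 for P10 and 1.21 and 0.931 for P320. It was lowest in T5 and highest in T320 among the adapted populations. SEMA3A, a secreted guidance factor that binds neuropilin, held a peak at chr7:84041633-84042832 with 5.29 and 2.79 CPM for the C libraries, 20.7 and 21.6 for T5, 25.6 and 32.1 for T10, 23.7 and 31.9 for T20, 14.2 and 25.9 for T40, 19.9 and 30.8 for T80, 22.8 and 31.1 for T160, 19.2 and 20.5 for T320, 6.13 and 6.24 for P10 and 4.41 and 4.44 for P320. This peak showed no such order: T10 was highest and T320 lowest of the adapted means. CCN2, a matricellular protein and a standard target of YAP and TEAD, lay 14784 bp from a peak inside its antisense gene CCN2-AS1, at chr6:131966156-131967050 with 2.29 and 1.35 CPM for the C libraries, 8.63 and 9.63 for T5, 14.6 and 14.6 for T10, 15.2 and 15.8 for T20, 10.8 and 19.7 for T40, 12.2 and 19.5 for T80, 15.4 and 20.1 for T160, 18.2 and 21.7 for T320, 1.26 and 1.07 for P10 and 1.21 and 0.931 for P320. Here too no adapted library overlapped C, P10 or P320.

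LAMB1 encodes a beta chain of the basement membrane laminins. The peak inside it at chr7:107951996-107954070 was among the most accessible, with 5.46 and 5.90 CPM for the C libraries, 23.5 and 22.3 for T5, 30.7 and 25.8 for T10, 34.8 and 36.8 for T20, 28.5 and 31.7 for T40, 31.8 and 30.9 for T80, 29.3 and 26.1 for T160, 21.4 and 20.8 for T320, 4.60 and 5.44 for P10 and 2.79 and 3.15 for P320. Only FNIP2, a partner of the tumour suppressor folliculin, had a higher floor. Its peak at chr4:158809754-158812369, the widest of the 113 at 2615 bp, had a lowest adapted mean of 24.7 CPM, against 21.1 in LAMB1, 19.9 in SEMA3A and 19.7 in P3H2, a collagen prolyl 3-hydroxylase. FNIP2 measured 22 to 39.1 CPM in the 14 adapted libraries, 8.64 and 6.62 in C, 11 and 12.3 in P10 and 9.46 and 8.77 in P320. P3H2 measured 18 to 31.2 CPM in the 14 adapted libraries, 6.61 and 5.40 in C, 6.04 and 7.04 in P10 and 4.81 and 5.58 in P320. In both genes P10 was above C in mean, and P320 was above C in FNIP2 and below it in P3H2.

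**Figure D3:**
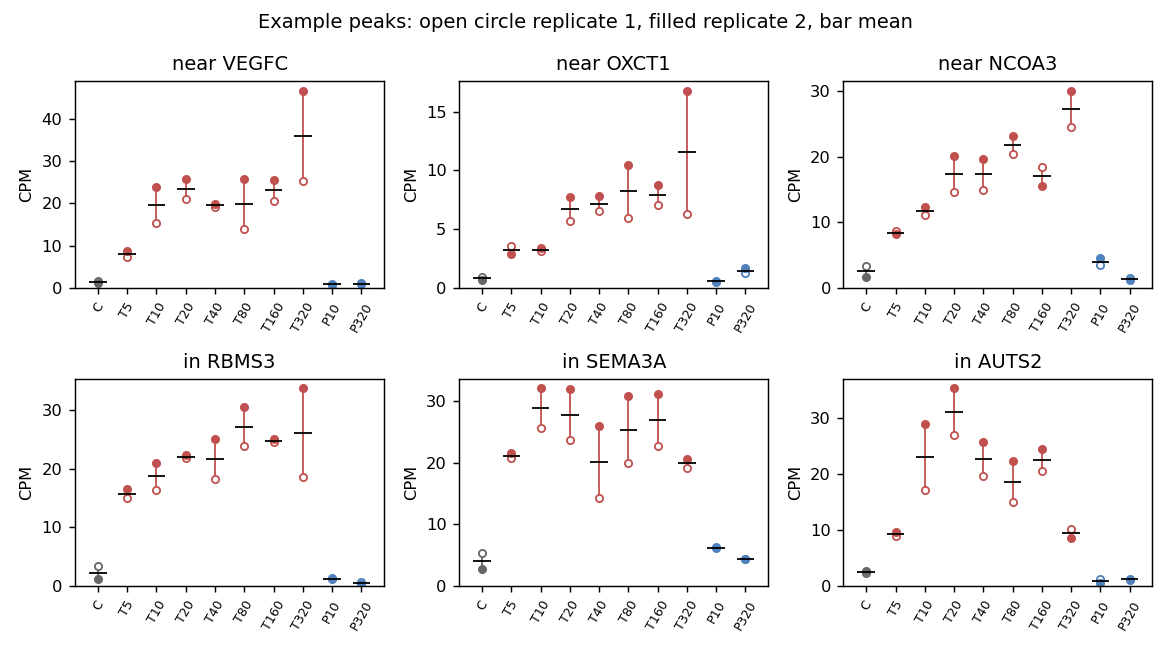
CPM in each library for 6 of the 113 peaks, with open circles for replicate 1, filled circles for replicate 2 and a bar at the mean, by population. The peaks near VEGFC and NCOA3 are highest in T320, at 35.9 and 27.3 CPM in mean, while the AUTS2 peak is highest in T20, at 31.2 CPM, and falls back to 9.45 in T320.

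Other peaks, picked for the roles of their nearest genes after their values were seen, had smaller ratios. JAG1, a ligand of Notch, lay 87010 bp from a peak at chr20:10761009-10762550 that measured 5.32 to 16.6 CPM in the 14 adapted libraries, 2.64 and 0.630 in C, 1.26 and 0.981 in P10 and 0.471 and 0.716 in P320. SFRP1, a secreted antagonist of Wnt, lay 167358 bp from one at chr8:41093426-41094604 that measured 7.95 to 18.5 CPM in the 14 adapted libraries, 3.53 and 1.17 in C, 1.80 and 1.74 in P10 and 1.08 and 0.931 in P320. LAMA4, a laminin alpha chain, lay nearest to one at chr6:112281812-112283051 that measured 5.02 to 14.1 CPM in the 14 adapted libraries, 3.17 and 1.26 in C, 2.12 and 2.01 in P10 and 2.02 and 1.68 in P320. PTGER4, a receptor of prostaglandin E2, lay 181465 bp from one at chr5:40497482-40498450 with a higher level, 13.8 to 24.3 CPM in the 14 adapted libraries, 4.23 and 4.55 in C, 5.59 and 5.44 in P10 and 3.03 and 3.26 in P320. MSI2, an RNA-binding protein of stem cells, held one at chr17:57662472-57663554 that measured 16.3 to 21.8 CPM in the 14 adapted libraries, 6.52 and 3.65 in C, 5.81 and 6.55 in P10 and 5.96 and 5.73 in P320. In each of these the adapted libraries lay clear of the other 6.

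The remaining peaks among the 12 with the largest ratio belonged to genes of varied roles. HMGB2, a high mobility group protein of chromatin, lay 11075 bp from a peak with a ratio of 4.57, and APPL2, an adaptor of early endosomes, held one with 4.52. CITED2, which binds the coactivators CBP and p300, lay 480846 bp from a peak with 4.48. The cell adhesion genes PCDH18 and NCAM2 were nearest to peaks with 4.43 and 4.37, at 77230 and 1356807 bp. A peak 833198 bp from OTOL1, a collagen-like protein of the inner ear, reached 4.64, and one inside LRRIQ1 reached 4.59. These 7 peaks included some with little signal in any group: the PCDH18 peak measured 2.15 to 6.22 CPM in the 14 adapted libraries, 0.353 and 0.360 in C, 0.135 and 0.178 in P10 and 0.135 and 0.107 in P320. Over all 113 the ratio had a median of 3.28 and ran from 3.004 to 6.46. The least C counts were 3 in replicate 1 and 2 in replicate 2, and the least count in any adapted library was 17, so ratios of the weakest peaks rest on few reads in C.

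Among adapted populations the 113 peaks were most often lowest at the first dose. T5 was the lowest of the 7 for 62 peaks, T320 for 24, T10 for 10, T160 for 8, T40 for 5, T80 for 3 and T20 for 1. The highest was T20 in 44 peaks, T320 in 27, T160 in 15, T80 in 14, T40 in 7, T10 in 4 and T5 in 2. The highest adapted mean was 2.03 times the lowest in the median peak, with a range from 1.26 to 4.43. Single peaks were tested with edgeR's quasi-likelihood test over all 105048 peaks, and calls needed an adjusted p (Benjamini-Hochberg) under 0.05 with an absolute log2 fold change of at least 1. The choice put a floor under every adapted population, the same for each, and set no ceiling. A peak near this floor in T5, the lowest population for 62 peaks, had room to rise at later doses and little to fall. Counts of rises against falls between adapted populations, and of positive against negative slopes, are therefore partly set by the choice.

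From 5 to 320 uM, 21 of the 113 peaks rose and 0 fell, where 11.3% of all peaks rose and 11% fell. At an unadjusted p under 0.05, 42 were higher and 0 lower in T320 by edgeR, against 21.5% of all peaks in either direction, and DESeq2 called 21 and 0. The median log2 difference was 0.28 over the 113 peaks and 0.00 over all peaks, and 88 of 113 were above 0, against 50.1% of all peaks. The size rested on single libraries: the median was 0.19, with 67 above 0, without T320 replicate 2, was 0.57, with 97 above 0, without T320 replicate 1, and was 0.45, with 94 above 0, without T5 replicate 2. In all 21 called peaks both T320 libraries lay above both T5 libraries. The largest difference was that near VEGFC, 2.23 ± 0.34 (SE; adjusted p = 9.7e-05). OXCT1, which activates ketone bodies for energy use, lay 1342 bp from a peak at chr5:41871767-41872248 with 0.969 and 0.720 CPM for the C libraries, 3.54 and 2.87 for T5, 3.12 and 3.43 for T10, 5.68 and 7.75 for T20, 6.54 and 7.80 for T40, 5.99 and 10.5 for T80, 7.07 and 8.75 for T160, 6.28 and 16.8 for T320, 0.541 and 0.624 for P10 and 1.31 and 1.68 for P320. This peak rose by 1.98 ± 0.40 (adjusted p = 0.0011), with a wide gap between the T320 libraries. NCOA3, a coactivator of steroid hormone receptors, lay 36781 bp from a peak at chr20:47464238-47465106 with 3.44 and 1.67 CPM for the C libraries, 8.63 and 8.30 for T5, 11.1 and 12.4 for T10, 14.7 and 20.2 for T20, 15 and 19.7 for T40, 20.4 and 23.2 for T80, 18.5 and 15.5 for T160, 24.6 and 30.1 for T320, 3.47 and 4.55 for P10 and 1.52 and 1.3 for P320. It rose by 1.76 ± 0.26 (adjusted p = 7.8e-05), and T320 was also above the other 5 adapted means. TENT5A, a poly(A) polymerase of the cytoplasm, lay 13536 bp from a peak at chr6:81766217-81768027 that measured 11.8 and 14.5 CPM in T5 and 34.4 and 44.5 in T320 and rose by 1.64 ± 0.25 (adjusted p = 7.6e-05).

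The other 17 peaks that rose by 320 uM had log2 differences from 1.03 to 1.55. They included 2 peaks in INPP4B and peaks near FOXL1, a forkhead factor, KLF6 and ETS1, transcription factors, HDAC5, a histone deacetylase, and CITED2. The CITED2 peak that rose starts at chr6:139990794. It is not the CITED2 peak described above by its ratio, which starts at chr6:139855494 and was not called. The CCN2 peak rose by 1.19 ± 0.30 (adjusted p = 0.0048). Many calls rested on T320 replicate 2: without it 6 peaks rose and 1 fell in place of 21 and 0, and OXCT1 had 0.94, CCN2 0.94 and FOXL1 0.96. Those near VEGFC, NCOA3 and in ITGA1 were called under each of the 15 alternatives run. The alternatives with no filter and with no fold minimum could not lose a call, since the filter removed no peak and the other only loosens a limit. With the median shift of each 5 Mb window of the genome removed, 16 rose and 1 fell, and TENT5A had 0.28.

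The difference from T5 was already present at the next dose. From 5 to 10 uM, 98 of 113 peaks were above 0, against 51.5% of all peaks, and the median log2 difference was 0.44 against 0.02. Without T10 replicate 2 the median was 0.14, with 75 above 0, and without T10 replicate 1 it was 0.66, with 107 above 0. This comparison shares its T5 libraries with the one at 320 uM, so both move together if T5 is low. Of the 113 peaks 5 rose and 0 fell, where 2.16% of all peaks rose and 1.2% fell. By edgeR 31 were higher and 0 lower at an unadjusted p under 0.05, against 10.3% and 9.11% of all peaks, and DESeq2 called 5 and 0. AUTS2, a component of a Polycomb complex and a gene studied in neural development, held a peak at chr7:70494414-70495488 with 2.38 and 2.61 CPM for the C libraries, 8.89 and 9.60 for T5, 17.2 and 28.9 for T10, 27.1 and 35.4 for T20, 19.6 and 25.8 for T40, 14.9 and 22.4 for T80, 20.6 and 24.5 for T160, 10.2 and 8.64 for T320, 1.22 and 0.535 for P10 and 1.21 and 1.07 for P320. It rose by 1.40 ± 0.30 from T5 to T10 (adjusted p = 0.012), its mean was highest in T20, and T320 came back to 9.45 CPM in mean against 9.24 in T5. DGLUCY, a D-glutamate cyclase of mitochondria, held a peak that measured 5.35 and 4.59 CPM in T5 and 11.3 and 13.2 in T10 and rose by 1.38 ± 0.26 (adjusted p = 0.0045). The other 3 were the VEGFC peak at 1.34, a BMP4 peak at 1.12 and a peak in GMDS, an enzyme of GDP-fucose synthesis, at 1.01. Without T5 replicate 2 or T10 replicate 2 none of the 5 was called, and without T5 replicate 1 only 1 was.

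At the last step, from 160 to 320 uM, 0 of the 113 peaks rose and 2 fell, where 1.52% of all peaks rose and 2.34% fell. By edgeR 10 were higher and 20 lower at an unadjusted p under 0.05, against 10.4% and 11% of all peaks, and DESeq2 called 0 and 3. A fit of these 2 groups alone called 0 and 4. The 2 were the AUTS2 peak, which fell by 1.3 with an SE of 0.31 (adjusted p = 0.018), and a peak in INPP4B at chr4:142462719-142463693. The INPP4B peak measured 0.264 and 1.04 CPM for the C libraries, 2.90 and 2.42 for T5, 3.88 and 6.04 for T10, 4.04 and 3.20 for T20, 4.05 and 3.01 for T40, 4.69 and 4.55 for T80, 5.92 and 12.4 for T160, 3.42 and 2.03 for T320, 0.361 and 0.758 for P10 and 1.14 and 1.15 for P320. It fell by 1.85 from T160 to T320 with an SE of 0.44 (adjusted p = 0.019), with T160 replicate 2 far above all other libraries. Without T160 replicate 2 or T320 replicate 2 neither was called, and without T160 replicate 1 the number that fell was 5.

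Over the 7 adapted populations together, with counts summed over replicates and fitted against log2 of the dose, 1 of 113 peaks rose and 0 fell at an absolute slope of at least 0.25 per doubling of dose. Among all peaks 3.37% rose and 2.35% fell. The peak was that near OXCT1, with a slope of 0.33 ± 0.06 per doubling (SE; adjusted p = 0.0082 by edgeR). It was not called on replicate 1 alone, where the slope was 0.17, nor with the median shift of each window removed, at 0.24, nor without T320, where the slope stayed at 0.33. By edgeR 27 of the 113 had a positive and 0 a negative slope at an unadjusted p under 0.05, against 14.5% and 14.4% of all peaks, and DESeq2 called 1 and 0. With no minimum slope, 12 of the 113 (10.6%) passed the adjusted threshold upward, against 6.27% of all peaks. The number of peaks called with a steady increase thus depended on the slope asked for. The larger differences between doses took several shapes: highest in T320 near VEGFC and NCOA3, highest in T20 in AUTS2.

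The exposed populations, which the rule bounds from above only, were compared with each other. From P10 to P320, 4 of the 113 peaks rose and 8 fell, where 4.1% of all peaks rose and 9.68% fell. By edgeR 11 were higher and 22 lower at an unadjusted p under 0.05, against 17% and 18.5% of all peaks, and DESeq2 called 6 and 9. A fit of these 2 groups alone called 8 and 17. The median log2 difference was -0.31 over the 113 peaks and 0.08 over all peaks, and 36 of 113 were above 0, against 54.7%. The choice capped both populations, and its cap left out 39 peaks for P10 alone and 5 for P320 alone. These counts and medians are therefore partly set by the choice, and no effect of dose is read from them. The libraries of the 2 populations did not overlap in any of the 12 called peaks. ERCC6L2, a helicase-like protein linked to DNA damage responses, lay 80708 bp from a peak that measured 1.67 and 1.34 CPM in P10 and 0.337 and 0.251 in P320, against 0.881 and 0.810 in C. It fell by 2.23 with an SE of 0.40 (adjusted p = 0.001 by edgeR). EXPH5, a Rab27 effector in vesicle transport, held a peak with 3.56 and 3.39 CPM in P10 and 0.707 and 1.04 in P320, which fell by 1.90 (SE 0.35; adjusted p = 0.0012). A peak in M1AP, a gene of meiosis, fell by 1.74, and the NCOA3 peak by 1.44. In the other direction, BRINP1, named for its induction by retinoic acid in neurons, held a peak with 1.53 and 2.99 CPM in P10 and 6.03 and 5.62 in P320, which rose by 1.46 ± 0.28 (adjusted p = 0.0017). The peaks near SEMA3D, a relative of SEMA3A, and UBASH3B, a tyrosine phosphatase, rose by 2.08 and 1.79, from 0.157 and 0.674 CPM in P10, and an OTOL1 peak rose by 1.06. The SEMA3D level was the lowest P10 mean of the 113 peaks, so the size of its rise is imprecise. The other falls on the log2 scale were in TP63, a relative of p53, which fell by 1.34, in CDK6, a kinase of the cell cycle, which fell by 1.15, and at 2 of the IBTK peaks, which fell by 1.22 and 1.01. Those near ERCC6L2 and in EXPH5 and BRINP1 were called under all 15 alternatives run, of which those with no filter and no fold minimum could not lose a call. M1AP was not called without P320 replicate 1, at -1.29. SEMA3D was not called without P10 replicate 2, at 1.57, or P320 replicate 1, at 1.82. UBASH3B was not called without P10 replicate 2, at 1.23, or P320 replicate 2, at 1.55, and NCOA3 had -1.23 and -1.30 without these and was not called either. These differences kept their direction and lost the call. The calls of the OTOL1, TP63, CDK6 and both IBTK peaks were also lost in some fits without 1 library. Their differences in such fits ran from 0.88 to 1.23 for OTOL1, from -1.65 to -1.07 for TP63 and from -1.26 to -1.04 for CDK6. For the IBTK peaks they ran from -1.45 to -1.01 and from -1.41 to -0.70. Without single libraries of the compared groups or C, between 1 and 4 peaks rose and between 4 and 10 fell, and 1 rose without P10 replicate 2.

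**Figure D4:**
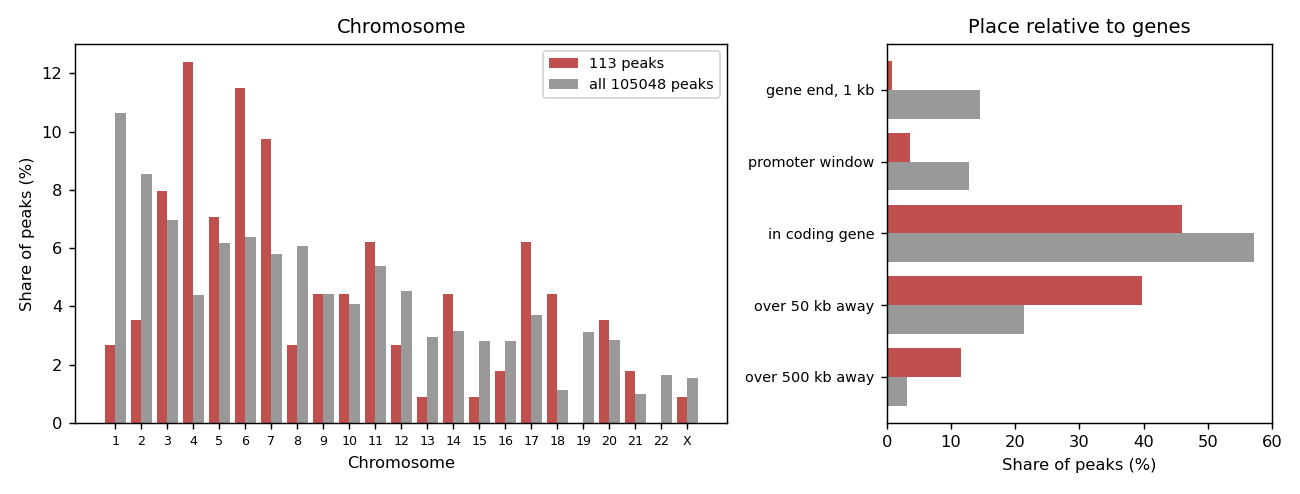
Left, share of the 113 peaks (red) and of all 105048 peaks (grey) on each chromosome, in percent; right, share by place relative to protein-coding genes and RefSeq promoter windows. Chromosome 4 holds 12.4% of the 113 peaks against 4.38% of all, and a gene end within 1 kb holds 0.885% against 14.6%. All peaks are not matched to the 113 in their level in C.

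The 113 peaks lay away from protein-coding genes more often than peaks at large, while the share that overlapped any RefSeq gene, noncoding ones included, was near that of all peaks (78, or 69.0%, against 70.4%). Only 1 (0.885%) came within 1 kb of the start or end of a coding gene, against 14.6% of all peaks, and 4 (3.54%) reached a RefSeq promoter window, against 12.8%. The single gene-end peak, at chr5:131392660-131394430 in CDC42SE2, an effector of the small GTPase CDC42, measured 10.8 to 28.6 CPM in the 14 adapted libraries, 4.05 and 3.24 in C, 5.59 and 5.48 in P10 and 4.92 and 4.30 in P320. Of the 113, 52 (46.0%) lay in the body of a coding gene, against 57.2%. A further 45 (39.8%) were over 50 kb from any coding gene, against 21.4%, and 13 of these over 500 kb away, 11.5% against 3.18%. The median distance to the nearest RefSeq start of transcription, of coding or noncoding genes, was 56860 bp, against 27868 bp over all peaks. All peaks are not matched to the 113 in signal: the median CPM in C was 5.66 over all peaks and 1.65 over the 113, which the choice kept low there. The part of this level in the location was not tested. Width was similar, with a median of 1194 bp against 1119 bp, and 0 annotated miRNA hairpins overlapped any of them.

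Chromosome 4 held 14 of the 113 peaks (12.4%, against 4.38% of all peaks), chromosome 6 held 13 (11.5%, against 6.37%) and chromosome 7 held 11 (9.73%, against 5.79%). Chromosome 18 held 5 (4.42%, against 1.13%), among them peaks nearest to CDH20, a cadherin, and CBLN2, an organiser of synapses. Chromosome 1 held 3 (2.65%, against 10.6%) and chromosome 2 held 4 (3.54%, against 8.54%), while chromosomes 19 and 22, with 3273 and 1720 peaks, held none. These shares are descriptions. Peaks on a chromosome can share a change in its DNA copy number, which was not tested.

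Chaining peaks of the 113 within 100 kb of each other gave 5 stretches with more than 1. INPP4B, which spans chr4:142023160-142846535, held 3 of the 4 peaks over 84931 bp. The first, at chr4:142378762-142380564, measured 3.79 and 2.16 CPM for the C libraries, 10.1 and 9.77 for T5, 10.1 and 11.7 for T10, 12.3 and 14.8 for T20, 10.9 and 15.5 for T40, 13.4 and 13.6 for T80, 15.1 and 14.7 for T160, 21.4 and 25.6 for T320, 4.06 and 4.01 for P10 and 2.29 and 2.29 for P320. It rose from T5 to T320 by 1.31 ± 0.24 (adjusted p = 0.00037 by edgeR). The second, at chr4:142405082-142406912, is the peak that covers both printed INPP4B promoter windows, and it measured 4.85 and 4.01 CPM for the C libraries, 13.7 and 15 for T5, 16.1 and 21.7 for T10, 23.9 and 30.6 for T20, 19.5 and 30.8 for T40, 20.3 and 29.7 for T80, 23 and 29.6 for T160, 23.4 and 32.6 for T320, 4.01 and 3.43 for P10 and 3.0 and 3.15 for P320. It rose from T5 to T320 by 1.03 ± 0.29 (adjusted p = 0.01), but not without T320 replicate 2, at 0.65, or T5 replicate 1, at 0.92. The third was the weak peak that fell from T160 to T320, so neighbours in 1 gene did not share their order across doses.

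On chromosome 6, 3 of 4 peaks over 32694 bp had IBTK, an inhibitor of Bruton's tyrosine kinase, as nearest gene, at 187150, 173693 and 155782 bp. The first, at chr6:81981511-81982837, measured 1.94 and 0.765 CPM for the C libraries, 6.12 and 4.76 for T5, 8.29 and 9.02 for T10, 8.69 and 8.85 for T20, 7.79 and 7.61 for T40, 7.73 and 9.05 for T80, 10.1 and 9.75 for T160, 13.2 and 11.9 for T320, 2.39 and 2.09 for P10 and 1.28 and 0.788 for P320. It rose from T5 to T320 by 1.27 ± 0.27 (adjusted p = 0.0013 by edgeR). With the shift of its 5 Mb window removed the difference was -0.069, and that of the third IBTK peak went from 1.14 to -0.23. The 2 SERTAD4 peaks, 3782 bp end to end, measured 13.7 to 30.3 CPM in the 14 adapted libraries, 4.32 and 2.70 in C, 4.46 and 4.50 in P10 and 3.40 and 4.15 in P320 in the first and 8.59 to 24.8 CPM in the 14 adapted libraries, 3.26 and 3.06 in C, 3.56 and 4.06 in P10 and 2.69 and 2.22 in P320 in the second. The 2 ITGA1 peaks, in a gene for a collagen receptor, spanned 3853 bp. The first ITGA1 peak measured 4.06 and 3.75 CPM in T5 and 9.51 and 12.2 in T320 and rose by 1.55 ± 0.32 (adjusted p = 0.0012), and the second measured 6.70 and 6.87 and 9.14 and 12.2. Near BMP4, a ligand of the TGF-beta superfamily, 2 of 3 peaks over 45321 bp were among the 113, and both were highest in T20, with mean CPM of 29.2 and 23.8.

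**Figure D5:**
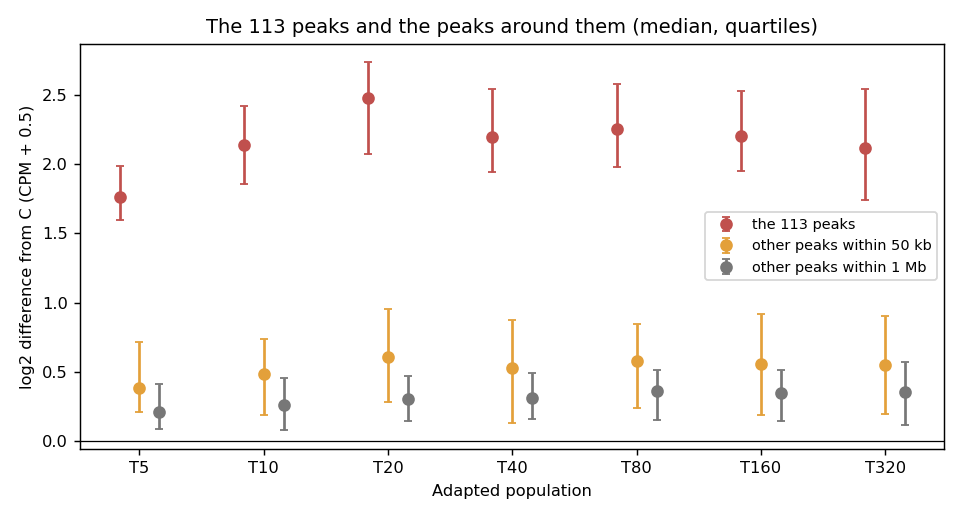
Log2 difference from C of (CPM + 0.5) in each adapted population, as median and quartiles over the 113 peaks (red), over the medians of the other peaks within 50 kb of each (orange, 106 with any) and over those within 1 Mb (grey). The peaks around them lie above 0 in median at every dose, at 0.39 to 0.61 within 50 kb and 0.21 to 0.36 within 1 Mb.

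Peaks around the 113 shifted the same way by a smaller amount. Over the peaks within 1 Mb that were not among the 113, a median of 79 for each, the median log2 difference from C was 0.21 for T5, 0.26 for T10, 0.30 for T20, 0.31 for T40, 0.36 for T80, 0.35 for T160 and 0.35 for T320. Over all peaks it lay between -0.03 and 0.01. It was above 0 around 101 of the 113 in T5 and around 95 in T320. Within 50 kb, where 106 of the 113 had another peak and the median number was 4, it was 0.39 in T5, 0.61 in T20 and 0.55 in T320. In exposed cells it was lower: -0.17 in P10 and -0.24 in P320 within 1 Mb, against -0.08 and -0.18 over all peaks. The surroundings were not chosen by their own values, other than by not meeting the rule, but they lie beside peaks that were. A shift shared by a whole stretch would move a peak and its surroundings alike, so these differences are not free of the choice.

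The surroundings differed from place to place. Around VEGFC the 52 peaks within 1 Mb stood at 0.04 in T5 and 0.24 in T320, while the peak itself stood at 2.14 and 4.23 on this scale. Around RBMS3 the 67 peaks went from 0.32 to 1.08. Around the first IBTK peak the 55 peaks went from 0.51 in T5 to 1.74 in T320, and around the TENT5A peak, outside the IBTK stretch but with surroundings that overlap its own, the 50 peaks went from 0.52 to 1.77. The first IBTK peak itself stood at 1.68 and 2.82, so from T5 to T320 its surroundings shifted by as much as the peak. A median shift of at least 1 within 1 Mb was seen around 0 of the 113 in T5 and around 8 in T320. DNA copy number was not measured, and its part was not tested.

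The 113 peaks were set against lists of genes of drug response, lineage and cell type. Of 19 lists, 16 had none of them as nearest gene within 50 kb, including the epithelial, mesenchymal, serous lineage, ABC transporter, NRF2, interferon and p53 lists. Each of these 16 lists holds between 0.0076% (hepatocyte) and 0.185% (mesenchymal) of all peaks, so 0 of 113 is near that share. The YAP and TEAD list had 1 of its 232 peaks among the 113, the CCN2 peak described above, which is 0.885% of the 113, where the list holds 0.221% of all peaks. The receptor tyrosine kinase list had 1 of 353, 0.885% of the 113 where the list holds 0.336% of all peaks. It lay in ROR1, a receptor for WNT5A, at chr1:63946639-63948090, with 4.67 and 3.74 CPM for the C libraries, 20.0 and 19 for T5, 18.5 and 23.2 for T10, 30.7 and 34.3 for T20, 22.1 and 22.3 for T40, 14 and 20.5 for T80, 21.9 and 25.8 for T160, 18.7 and 21.4 for T320, 1.94 and 3.61 for P10 and 3.03 and 3.65 for P320. It was high from the first dose on, and T320 differed from T5 by 0.11 ± 0.25 on the log2 scale (adjusted p = 0.77 by edgeR), which did not pass. No peak of the 113 had CD24, CD44, ABCB1 or SLFN11 as nearest gene within 50 kb. With 0 or 1 peak in a list, nothing is read from these shares about the lists.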

How the data were processed

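ATAC-seq of 20 Kuramochi libraries, 2 for each of 10 groups, was used, and 8 further samples of the 28 in the labels were not analysed here. Per the labels' protocols, libraries followed Omni-ATAC and were sequenced paired-end. The authors deposited read counts per consensus peak, whole numbers with no normalization; 0 columns of samples were left unmapped. Per the submitters' processing notes, which give no roles, the authors used MACS2, Bowtie2, HOMER 4.1, SAMtools, Picard, deepTools 3.1 and 3.5.1, Trim Galore and DESeq2, with GRCh38. How duplicates were handled and whether starts count from 0 is not given in the sources used here.

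CPM were computed here as count over library total. A robust quasi-likelihood fit with TMM scaling in edgeR 4.0.16 (R 4.3.3) covered the 105048 peaks and all 10 groups, without a replicate block. filterByExpr removed none of the 113. Benjamini-Hochberg adjustment ran over all peaks. The trend used counts summed per population. Scripts were tested on simulated data. Promoter windows, gene positions and sequences came from RefSeq. Of 4 peaks, 5 windows matched.

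Alternatives were total-count and RLE scaling, a window offset that removes each 5 Mb window's median shift from C, no or a stricter filter (2 CPM in 2 libraries), DESeq2 1.42.0, no fold minimum, a replicate block, fits of the compared groups alone, other limits of the rule, and leaving out libraries. The 113 peaks, gene lists and comparisons were chosen with earlier results of these data known, and the 50 kb surroundings were added after the data were seen. Peaks named were the 12 with the largest ratio, the 4 with the highest floor, those at gene ends, those in the stretches with most members (3 tied), up to 4 called per direction and comparison, up to 2 per list, 3 on each side of each limit (2 outside the CPM limit), and 6 preset genes. GMDS, KLF6, ETS1, HDAC5, FOXL1 and other peaks marked in the text were added after their values were seen. The result of 1 gene list, with 2 preset genes that belong to it, is not reported here.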

Additional observations from a re-analysis of the deposited data

How the results depend on the processing

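The number of peaks that meet the rule rests on its limits and on C replicate 1, the shallower untreated library. It was 927 with a fold of at least 2 and 23 with a fold of at least 4, 50 and 18 with 0.5 and 1 CPM added in place of 0.2, and 64 with the window offset, of which 45 were among the 113. Leaving out libraries it ran from 66 (replicate 1 alone) to 308 (without C replicate 1). With TMM-scaled CPM it was 114.

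For single peaks, the trend gave 0 upward calls with the window offset or without T320 and 12 with no slope minimum, and 0 to 2 on 1 replicate alone. T320 against T5 gave 6 to 31 upward and 0 to 1 downward without single libraries, and 1 downward with the window offset. T10 against T5 gave 0 to 5 upward. T320 against T160 gave 0 to 2 upward and 0 to 5 downward, and 4 downward in a fit of these groups alone. P320 against P10 gave 1 to 4 upward and 4 to 10 downward, and 8 and 17 in a fit of these groups alone. In T320 against T5 the window offset reversed the IBTK peaks at 81981511 (-0.069) and 82012986 (-0.23). Of the values of single called peaks under alternatives, 519 kept their call, 91 lost it and 2 reversed, and the cause of the losses was not tested. The 519 include the alternatives with no filter and no fold minimum, which could not lose a call. A population left with 1 library was taken to vary as the rest do.

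Replicate numbers 1 and 2 recur in every group. Deviations of same-numbered libraries from their group means correlated at 0.17 to 0.58 over the 28 pairs of groups among C and the adapted populations, and at -0.09 to -0.00080 over the 17 pairs with P10 or P320. The labels do not say that a number marks a shared culture or day, so no pairing was assumed. With a replicate block, T320 against T160 gave 4 downward calls in place of 2 and P320 against P10 gave 9 upward in place of 4 and 12 downward in place of 8, while T320 against T5 gave 22 upward and T10 against T5 gave 5.

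Depth limits the weakest peaks: with as few as 2 to 3 counts in a C library, the ratio of such a peak to C is imprecise. The same limit holds for exposed cells, where the lowest mean of a peak was 0.157 CPM in P10 and 0.121 in P320.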
